A study of Mus musculus with 2 samples.

Results

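The 6 transcripts described here encode costimulatory receptors of CD8+ T cells, picked by gene symbol from the 32285 genes of the count matrix. Tnfrsf4 (OX40), Tnfrsf9 (4-1BB, also CD137), Tnfrsf18 (GITR) and Cd27 belong to the tumour necrosis factor receptor (TNFR) family, and Cd28 and Icos to the CD28 family. Each of the 6 was found under its own symbol and had counts in all 6 conditions. CD8+ T cells had been taken from the spleens of wild-type mice and kept for 30 h with or without antigen on the plate. Antigen was biotinylated, monomeric H-2Db loaded with the peptide M9C or the peptide L6F and bound to streptavidin plates, at 0.2, 2 or 20 pmol for M9C and at 80 or 20 pmol for L6F. Rested cells had no peptide. Every culture got its own hashtag antibody (a barcoded antibody that marks which culture a cell came from), and live cells were sorted with propidium iodide, a stain for dead cells that does not select for CD8. All cells then shared 1 lane of a droplet platform. The number of mice, the strain beyond wild type and the specificity of the T cell receptors are not stated in the labels.

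Each condition was 1 culture. No difference below has a replicate check, and no test between conditions is given. The intervals are exact 95% intervals (Poisson for levels, Clopper-Pearson for ratios and shares) that cover counting error only.

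A T cell reads antigen through its receptor and needs a further signal to expand and survive. CD28 and CD27 are present on naive T cells and give that signal early, whereas OX40, 4-1BB and ICOS appear on the surface after antigen contact and sustain the response. The TNFR members recruit TRAF adaptors and feed into NF-kB, and the CD28 family members act through phosphoinositide 3-kinase.

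Cells with a clear hashtag, a minimum of 500 genes and a mitochondrial share of 10% or less numbered 1589, 1703 and 1869 at 0.2, 2 and 20 pmol M9C, 2207 and 2477 at 80 and 20 pmol L6F, and 755 at rest. Levels are unique molecular identifiers (UMIs, 1 per captured transcript) summed over the cells of a condition, then scaled to one common total (CPM). The stimulated conditions held 11376897 to 16014100 UMIs and the rested cells 918920, so the limit that a count of 0 allows (3 counts) was 0.187 to 0.264 CPM in stimulated cells and 3.26 CPM in rested cells. The median cell had 6050 to 7114 UMIs when stimulated and 1056 at rest. The filter kept 96.3% to 98.6% of stimulated barcodes and 47.7% of rested ones. The 5 CD8 T cell markers summed to 1753 to 1963 CPM in stimulated cells and 2925 CPM in rested cells. At least 1 of their UMIs was in 98.9% to 99.3% of stimulated cells and in 93.5% of rested cells, and Cd4 did not pass 0.0774 CPM anywhere. The 3 macrophage or monocyte markers summed to 0.751 to 24.2 CPM in stimulated cells and 147 CPM in rested cells (Adgre1 was at 0 in 5 of the 6 conditions). The 3 erythroid markers summed to 1.41 to 21.1 CPM in stimulated cells and 111 CPM in rested cells, and the 3 basophil or mast cell markers to 0.218 to 2.37 CPM and 12.0 CPM. Markers of NK cells, dendritic cells and neutrophils stayed at or under 3.26 CPM in sum in every condition. The part of these other cells in the ratios to rested cells was not tested.

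In the GENCODE vM21 annotation of GRCm38, Tnfrsf4 (ENSMUSG00000029075) lies on the plus strand at chr4:156013843-156016612, and Tnfrsf18 (ENSMUSG00000041954) starts 9552 bases further on, at chr4:156026164-156028895 on the same strand. Tnfrsf9 (ENSMUSG00000028965) spans chr4:150914562-150946102. Cd28 (ENSMUSG00000026012, chr1:60716800-60773359) and Icos (ENSMUSG00000026009, chr1:60977927-61000320) flank Ctla4, and Cd27 (ENSMUSG00000030336) lies on the minus strand at chr6:125232622-125237010. Tnfrsf18 shares exon bases with the antisense gene Gm16008, which had at most 0.264 CPM in stimulated cells and 1.09 CPM at rest.

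The starts of Tnfrsf4, of its neighbour Tnfrsf18 and of Tnfrsf9 are shown because these 3 genes differ in how their transcripts changed. RefSeq promoters (GRCm38.p6; 250 bases before to 50 after a start, for 4 of the 6 members) were searched on both strands for GGGA followed by 4 bases of any kind and CC (NF-kB), for TGANTCA (AP-1) and for GGAAAA (the NFAT core). Among 32817 such promoters, 20.7% held the first, 7.81% the second and 23.3% the third. The RefSeq starts differ from the GENCODE gene starts given above. Both Tnfrsf9 starts and the Tnfrsf18 start lie inside the annotated genes, and the Tnfrsf4 start lies before its gene. The lines give plus-strand bases upstream of the starts and outside annotated untranslated regions, or a match with 9 bases on either side, and capitals mark the matches.
Tnfrsf4, chr4:156013611-156013694: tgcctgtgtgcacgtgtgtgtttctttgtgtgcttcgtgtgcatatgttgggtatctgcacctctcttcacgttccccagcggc
Tnfrsf18, chr4:156026072-156026163: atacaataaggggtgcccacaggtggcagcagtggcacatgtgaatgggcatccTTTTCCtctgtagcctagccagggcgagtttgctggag
Tnfrsf9, first start, chr4:150919905-150920154: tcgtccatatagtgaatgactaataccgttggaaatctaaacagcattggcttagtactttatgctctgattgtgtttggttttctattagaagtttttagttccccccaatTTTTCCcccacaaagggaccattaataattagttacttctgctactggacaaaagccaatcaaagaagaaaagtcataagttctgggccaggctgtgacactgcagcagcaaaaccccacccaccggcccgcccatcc
Tnfrsf9, second start, NF-kB letters, chr4:150927948-150927975: gagcagctgGGGATTTCCCaggaggccc
Tnfrsf9, second start, AP-1 letters, chr4:150927975-150927999: ctgctcagtTGAGTCAcaggtcctg

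The second Tnfrsf9 start had the NF-kB letters from position -42 (counted from the start, the same 10 bases matching on both strands) and the AP-1 letters from position -15. The first Tnfrsf9 start, the Tnfrsf18 start and the Cd27 start each had the NFAT core once and neither other motif. The Tnfrsf4 window held none of the 3, but it ended at base 156013744, before the GENCODE start of the gene at 156013843. A match describes letters in a window and not a site that was shown to be used.

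Against rested cells, 4 of the 6 receptors had higher transcript levels under every stimulus, and Tnfrsf18 and Cd27 had lower ones. A gene was counted where it had at least 10 CPM in either condition, passed 2-fold and its interval excluded equality. Tnfrsf4, Tnfrsf9, Cd28 and Icos passed upward in each of the 5 comparisons and no member passed downward. Tnfrsf4 and Tnfrsf9 were under the 10 CPM minimum in rested cells and so could only be counted upward. With the stricter cell filter (1000 genes or more, mitochondrial share of 5% or less), which left 47 rested cells, Tnfrsf9 no longer passed at 80 pmol L6F, at a log2 ratio of 0.73 against 2.39. Over all genes measured, the share passing upward was 16.5% at 0.2 pmol M9C, 16.7% at 2 pmol M9C, 16.9% at 20 pmol M9C, 13.5% at 80 pmol L6F and 14.3% at 20 pmol L6F. The share passing downward was 16.3%, 16.4%, 16%, 13.3% and 14% in the same order. The median log2 ratio of the members at 20 pmol M9C was 1.59, beside 0.10 over all 7779 genes measured. These 5 comparisons share the rested cells.

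**Figure D1:**
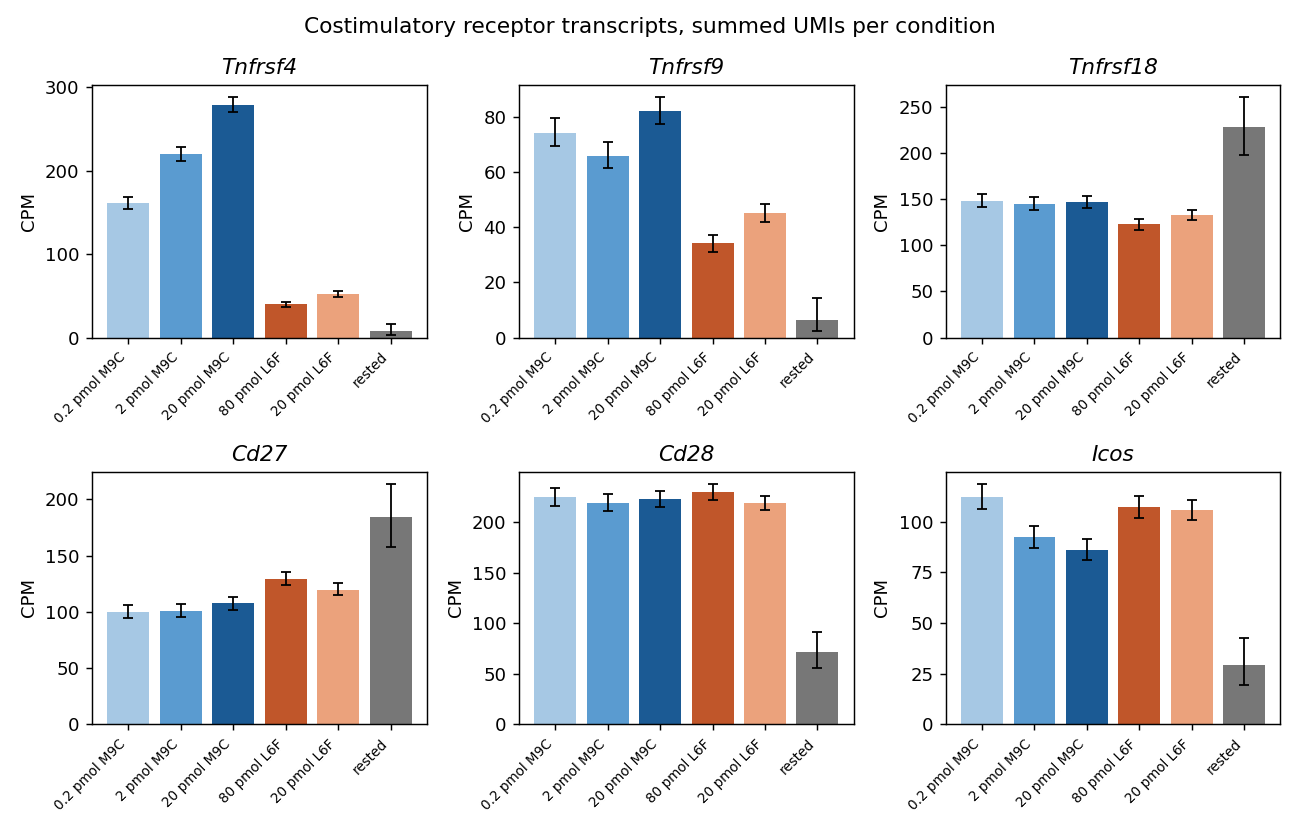
Transcript level (CPM of summed UMIs, vertical axis from 0) of the 6 receptors in the 5 stimulated conditions and rested cells, 1 culture each; bars are levels and error bars exact 95% Poisson intervals of counting error. Tnfrsf4 runs from 161 to 279 CPM over the M9C doses and stays at or under 51.6 CPM with L6F, whereas Tnfrsf18 and Cd27 are highest in rested cells.

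Tnfrsf4 encodes OX40, a receptor that prolongs survival of activated T cells, and it set the stimuli furthest apart. It stood at 161, 219.7 and 279 CPM at 0.2, 2 and 20 pmol M9C, at 39.6 and 51.6 CPM at 80 and 20 pmol L6F, and at 7.62 CPM (7 UMIs) in rested cells. Every M9C dose was above both L6F doses, and no 2 of the 6 intervals overlapped. The level at 20 pmol M9C was 36.6-fold that of rested cells (interval 17.8 to 91.2), and at 20 pmol L6F it was 6.77-fold (3.27 to 16.9). With so few rested UMIs, these folds are known only to within these wide bounds. Compared at the same 20 pmol, M9C gave a level 5.41-fold that of L6F (5.02 to 5.84).

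Within M9C the Tnfrsf4 level was higher at each higher dose. The log2 ratio was 0.45 (0.36 to 0.53) for 2 over 0.2 pmol, 0.35 (0.27 to 0.42) for 20 over 2 pmol and 0.79 (0.71 to 0.87) for 20 over 0.2 pmol. L6F went the other way, with a log2 ratio of -0.38 (-0.54 to -0.22) for 80 over 20 pmol. The dose spans differ between the peptides, and each rests on single cultures.

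Tnfrsf9 encodes 4-1BB, a receptor widely used as a mark of recent antigen contact on CD8+ T cells. It had 74.4, 66.1 and 82.3 CPM at 0.2, 2 and 20 pmol M9C, 34.2 and 45.2 CPM at 80 and 20 pmol L6F, and 6.53 CPM (6 UMIs) in rested cells. All M9C values were above all L6F values, but their order did not follow the M9C dose. The level at 20 pmol M9C was 12.6-fold (5.77 to 34.4) that of rested cells and 1.82-fold (1.65 to 2.00) that of 20 pmol L6F. The first of these rests on the 6 rested UMIs and on the cell filter: as a log2 ratio it was 3.66, against 1.99 with the stricter filter. The log2 ratio of 20 over 0.2 pmol M9C was 0.14 (0.01 to 0.28), with 2 over 0.2 pmol at -0.17 (-0.31 to -0.03). Between the L6F doses, 80 over 20 pmol, it was -0.40 (-0.57 to -0.23).

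Cd28, the classical costimulatory receptor for the B7 ligands, differed little between the stimuli. Its level was 225, 219 and 223 CPM at 0.2, 2 and 20 pmol M9C, 229.6 and 219 CPM at 80 and 20 pmol L6F, and 71.8 CPM in rested cells. The intervals of the 5 stimulated values overlapped one another, and all lay above that of the rested value. Against rested cells the ratio was 3.04-fold to 3.20-fold, and 3.10-fold (2.43 to 4.02) at 20 pmol M9C. The log2 ratio of M9C over L6F at 20 pmol was 0.03 (-0.05 to 0.10), and that of 20 over 0.2 pmol M9C was -0.01 (-0.09 to 0.06). For 80 over 20 pmol L6F it was 0.07 (0.0016 to 0.14), an interval that just excluded equality.

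Icos, the inducible member of the CD28 family, was higher at the lowest M9C dose than at the other M9C doses. It had 112, 92.4 and 86.1 CPM at 0.2, 2 and 20 pmol M9C, 107 and 106 CPM at 80 and 20 pmol L6F, and 29.4 CPM (27 UMIs) in rested cells. The lowest M9C dose was close to both L6F doses, and the 20 pmol M9C value was the lowest of the stimulated conditions. The log2 ratio of 20 over 0.2 pmol M9C was -0.38 (-0.50 to -0.27), and that of M9C over L6F at 20 pmol was -0.30 (-0.41 to -0.19). By step it was -0.28 (-0.40 to -0.17) for 2 over 0.2 pmol M9C. For 20 over 2 pmol M9C it was -0.10 (-0.22 to 0.02), an interval that included equality. At 0.2 pmol M9C the regulatory T cell markers summed to 14.5 CPM (Foxp3 at 0), against 5.50 to 9.62 CPM in the other stimulated conditions and 10.9 CPM at rest. In cells with no UMI of Ikzf2, 1 of these 2 markers, Icos was at 112, 92.4 and 86.1 CPM at 0.2, 2 and 20 pmol M9C. These cells were 92.1%, 95.7% and 96.7% of all cells at those doses. Leaving out so few cells could hardly move the level, so the part of Ikzf2-expressing cells in the Icos order was not tested.

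Tnfrsf18 encodes GITR, a receptor best known from regulatory T cells, and it had its highest level at rest. It had 148, 145 and 147 CPM at 0.2, 2 and 20 pmol M9C, 122 and 133 CPM at 80 and 20 pmol L6F, and 227 CPM in rested cells. The rested value was above all 5 stimulated ones. The ratio to rested cells was 1.55-fold lower (1.34 to 1.79) at 20 pmol M9C and 1.72-fold lower (1.48 to 1.98) at 20 pmol L6F. M9C over L6F at 20 pmol was a log2 ratio of 0.15 (0.06 to 0.24), and the M9C doses did not separate (20 over 0.2 pmol, -0.02, interval -0.11 to 0.08).

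Cd27, whose product is carried by naive T cells and binds CD70, was lower in all 3 M9C conditions than in both L6F conditions, and highest at rest. Its level was 99.9, 101 and 107 CPM at 0.2, 2 and 20 pmol M9C, 129 and 119.8 CPM at 80 and 20 pmol L6F, and 184 CPM in rested cells. Cells on 20 pmol M9C were 1.71-fold lower (1.45 to 2.01) than rested cells, and those on 20 pmol L6F 1.54-fold lower (1.304 to 1.798). M9C over L6F at 20 pmol was -0.16 on the log2 scale (-0.26 to -0.06).

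At a threshold of 1.5-fold, Tnfrsf18 and Cd27 both passed downward at 0.2, 2 and 20 pmol M9C and at 20 pmol L6F, and Tnfrsf18 alone at 80 pmol L6F. Over all genes, 23.7%, 23.7%, 22.9% and 21.8% passed downward in those first 4 comparisons and 20.9% in the last. These lower values are shares of the captured RNA and turn round when levels are taken per cell. Tnfrsf18 averaged 1.06, 1.02 and 1.01 UMIs per cell at 0.2, 2 and 20 pmol M9C, 0.765 and 0.857 at 80 and 20 pmol L6F, and 0.277 in rested cells. Cd27 averaged 0.715, 0.711 and 0.743 UMIs per cell at those M9C doses, 0.808 and 0.774 at those L6F doses, and 0.224 in rested cells. Over all genes measured, the median log2 ratio to rested cells was 2.43 to 2.65 in UMIs per cell, against 0.07 to 0.10 in CPM. The reversal also appeared in CPM with the stricter cell filter, where the log2 ratio at 20 pmol M9C was 0.51 for both Tnfrsf18 and Cd27.

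**Figure D2:**
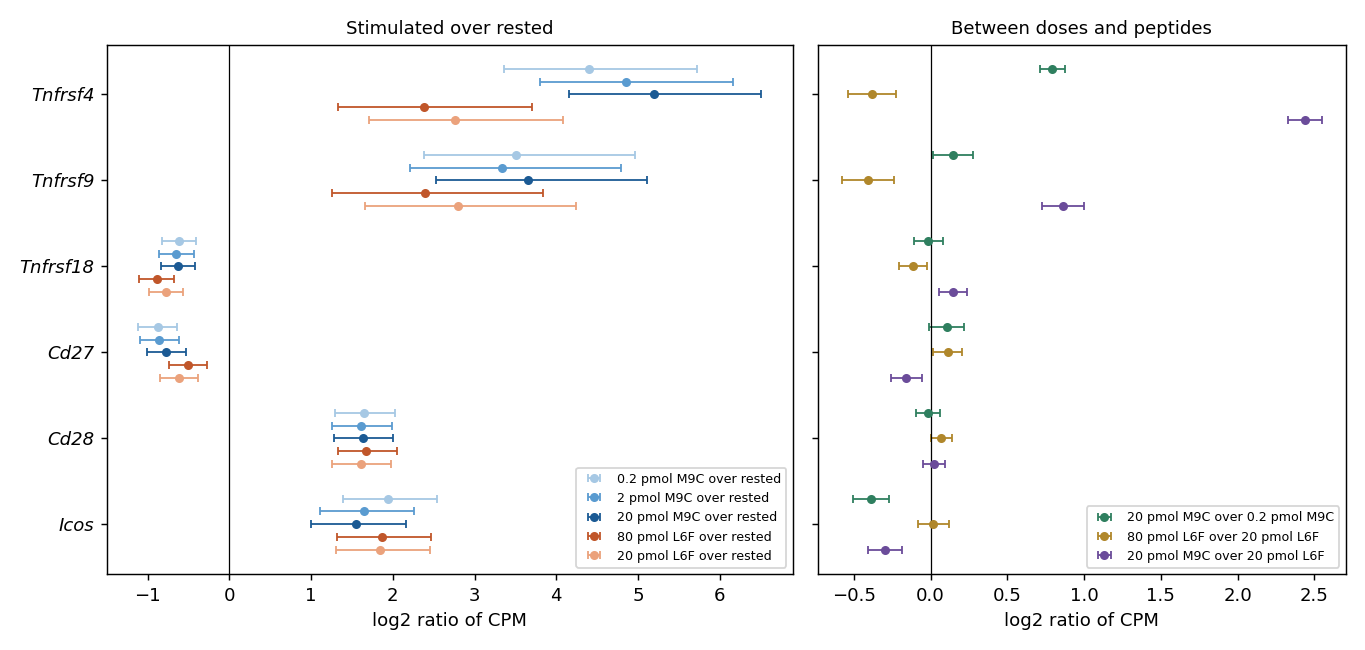
Log2 ratio of CPM (horizontal axes) for the 6 receptors, on the left for each stimulus over rested cells and on the right for 20 over 0.2 pmol M9C, 80 over 20 pmol L6F, and M9C over L6F at 20 pmol; points are ratios of single cultures and bars exact 95% counting intervals. Tnfrsf4 has the ratio furthest from 0 in the right panel, 2.44 for M9C over L6F, and Cd28 stays between -0.01 and 0.07 there.

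Between stimuli, Tnfrsf4 and Tnfrsf9 were the members that passed 1.5-fold in any of the 5 comparisons made. For M9C over L6F at 20 pmol, Icos, Cd27 and Tnfrsf18 differed by less than 1.5-fold, with intervals that excluded equality. The same held for Icos for 20 over 0.2 pmol M9C. For 20 over 0.2 pmol M9C, 1 member (Tnfrsf4) passed 1.5-fold upward, where 0.832% of all genes measured did, and no member passed downward, where 0.488% did. For M9C over L6F at 20 pmol, 2 members (Tnfrsf4 and Tnfrsf9) passed 1.5-fold upward, where 2.27% of genes did, and none downward, where 2.57% did. Tnfrsf4 also passed 2-fold in that comparison, as did 0.884% of genes. No member passed 1.5-fold either way for 20 over 2 pmol M9C (0.23% of genes upward, 0.0864% downward), for 2 over 0.2 pmol M9C (0.302% and 0.316%) or for 80 over 20 pmol L6F (0.0863% and 0.0575%).

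The gap in Tnfrsf4 between peptides was present in shallow and deep cells alike. In the third of cells with the fewest UMIs, Tnfrsf4 had 259 CPM at 20 pmol M9C and 40.4 CPM at 20 pmol L6F, and in the third with the most it had 306 and 57.7 CPM. Markers of gamma-delta T cells (Trdc and Tcrg-C1) also moved with the peptide. They had a UMI in 26.1% to 27.7% of M9C cells, 35.4% to 36.6% of L6F cells and 31.0% of rested cells, and summed to 54.2 to 58.6 CPM, 92.9 to 100.4 CPM and 411 CPM in those groups. In cells with no Trdc UMI, Tnfrsf4 was at 278 CPM at 20 pmol M9C and 56.8 CPM at 20 pmol L6F, Tnfrsf9 at 82.2 and 47.7 CPM, and Icos at 85.4 and 107.7 CPM. The differences between peptides in these 3 genes were thus also measured in cells where no Trdc UMI was counted. At such low Trdc levels a cell that expresses the gene can have no UMI of it. The part of gamma-delta T cells in these differences was therefore not tested.

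Shares of cells were compared after thinning every cell to 1000 UMIs, which left out shallower cells and kept 1586 to 2467 cells per stimulated condition and 464 rested cells. A Tnfrsf4 UMI was then found in 15.01%, 18.3% and 20.8% of cells at 0.2, 2 and 20 pmol M9C, in 3.64% and 4.70% at 80 and 20 pmol L6F, and in 0.216% of rested cells (0.00546% to 1.19%). The order of the 6 conditions was that of the CPM. Before thinning, the shares were 46.2%, 54.7% and 59.4% for those M9C doses, 15.7% and 19.6% for those L6F doses, and 0.927% at rest.

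For Tnfrsf9 the thinned shares were 6.81%, 5.83% and 8.27% at 0.2, 2 and 20 pmol M9C, 2.73% and 4.01% at 80 and 20 pmol L6F, and 0.647% at rest. Before thinning, they were 35.2%, 33.6% and 38.1%, then 16.2% and 21.4%, and 0.795% at rest. As a measure of free RNA, cells with basophil or mast cell markers and no Cd3e or Cd8a were counted, but there were only 4 (median 3406 UMIs), of which 1 had a Tnfrsf9 UMI and none a UMI of another member. The rested cells passed through the same lane as the stimulated ones, so their low Tnfrsf4 and Tnfrsf9 shares bound what free RNA added to cells of their depth.

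Icos was detected in 11.4%, 8.54% and 7.30% of thinned cells at 0.2, 2 and 20 pmol M9C, in 10.6% and 9.24% at 80 and 20 pmol L6F, and in 2.16% at rest. Cd28 was detected in 17.6% to 21.2% of thinned stimulated cells and 5.82% of rested cells. Tnfrsf18 was detected in 11.8% to 13.6% of stimulated and 18.1% of rested cells, and Cd27 in 8.70% to 12.2% of stimulated and 16.2% of rested cells. Without thinning, the shares were 41.5% to 49.9% of stimulated and 3.44% of rested cells for Icos, 68.1% to 71.0% and 8.34% for Cd28, 48.9% to 58.3% and 24.1% for Tnfrsf18, and 48.1% to 51.4% and 19.3% for Cd27. For Tnfrsf18 and Cd27 the thinned and the unthinned shares thus order stimulated and rested cells in opposite ways.

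Stimulated cells were deep enough to thin to 4000 UMIs as well, which kept 1373 to 1987 cells per condition and only 8 rested cells, so no rested value is given at this depth. Tnfrsf4 was found in 36.6%, 46.0% and 51.4% of cells at 0.2, 2 and 20 pmol M9C, and in 12.0% and 15.05% at 80 and 20 pmol L6F. Cells with 3 or more Tnfrsf4 UMIs made up 7.21%, 10.7% and 15.5% at those M9C doses and 0.753% and 1.16% at those L6F doses. Tnfrsf4 was also spread least evenly over cells: its variance over its mean was 1.94, 1.84 and 2.10 with M9C and 1.58 and 1.63 with L6F, where even Poisson sampling gives 1. For the other 5 receptors this measure lay between 0.980 and 1.37.

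**Figure D3:**
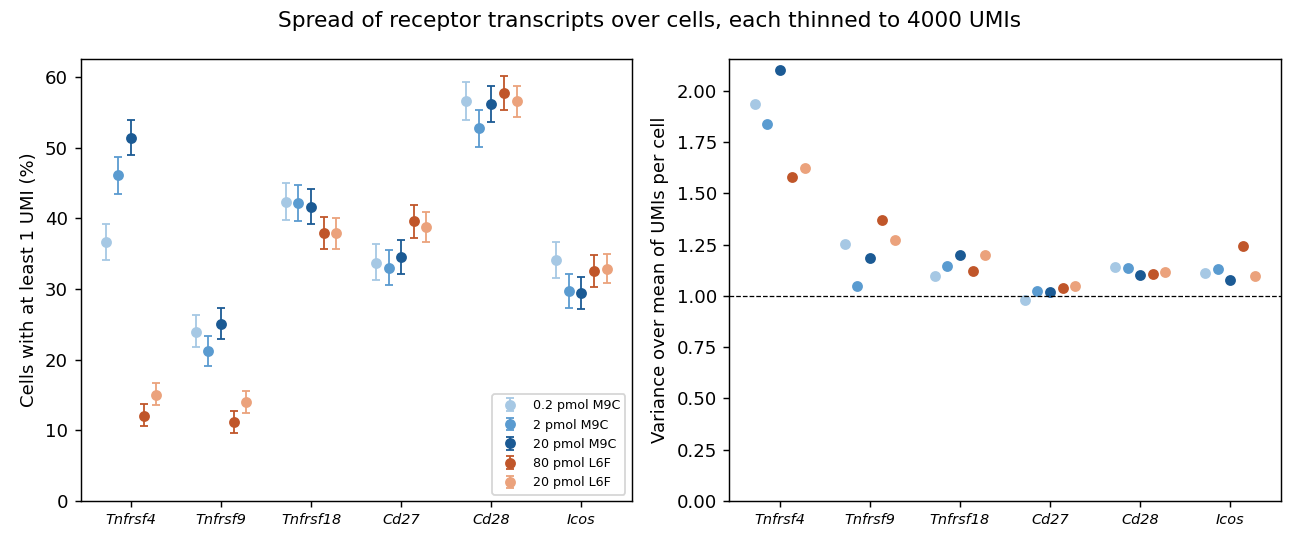
Left, share of cells with at least 1 UMI of each receptor in the 5 stimulated conditions, with exact 95% binomial intervals; right, variance over mean of UMIs per cell, with a dashed line at 1; every cell was thinned to 4000 UMIs. Tnfrsf4 ranges from 12.0% to 51.4% of cells and has the highest variance over mean in every condition, and Cd28 is found in a like share of cells under all stimuli.

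Receptor transcripts were then compared cell by cell over the 15 pairs in each of the 5 stimulated conditions, as the odds ratio of finding both in a cell (above 1 where they occur together more often than their shares alone give). In cells thinned to 4000 UMIs, 3 pairs were above 1 in all 5 conditions. Tnfrsf4 and Tnfrsf9 had odds ratios of 1.33 to 1.85, Tnfrsf4 and Tnfrsf18 of 1.17 to 1.62, and Tnfrsf9 and Tnfrsf18 of 1.10 to 1.23. At 20 pmol M9C, 30.6% of cells with a Tnfrsf4 UMI and 19.2% of cells without one had a Tnfrsf9 UMI. The other 12 pairs lay on both sides of 1, among them Tnfrsf4 and Cd27 at 0.649 to 1.06.

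These associations were weak, with Spearman coefficients over cells of -0.06 to 0.15 for all 15 pairs, and cells of 1 culture share a library. At 1000 UMIs per cell, Tnfrsf4 and Tnfrsf18 stayed above 1 in 5 of 5 conditions (1.09 to 1.45), Tnfrsf9 and Tnfrsf18 in 4, and Tnfrsf4 and Tnfrsf9 in 3, with a range of 0.505 to 4.62. A cell with 4000 UMIs held transcripts of 2.27, 2.25 and 2.38 of the 6 receptors on average at 0.2, 2 and 20 pmol M9C and of 1.91 and 1.95 at 80 and 20 pmol L6F. Cells with 4 or more of them made up 15.9%, 14.6% and 17.7% at those M9C doses and 7.35% and 8.51% at those L6F doses.

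**Figure D4:**
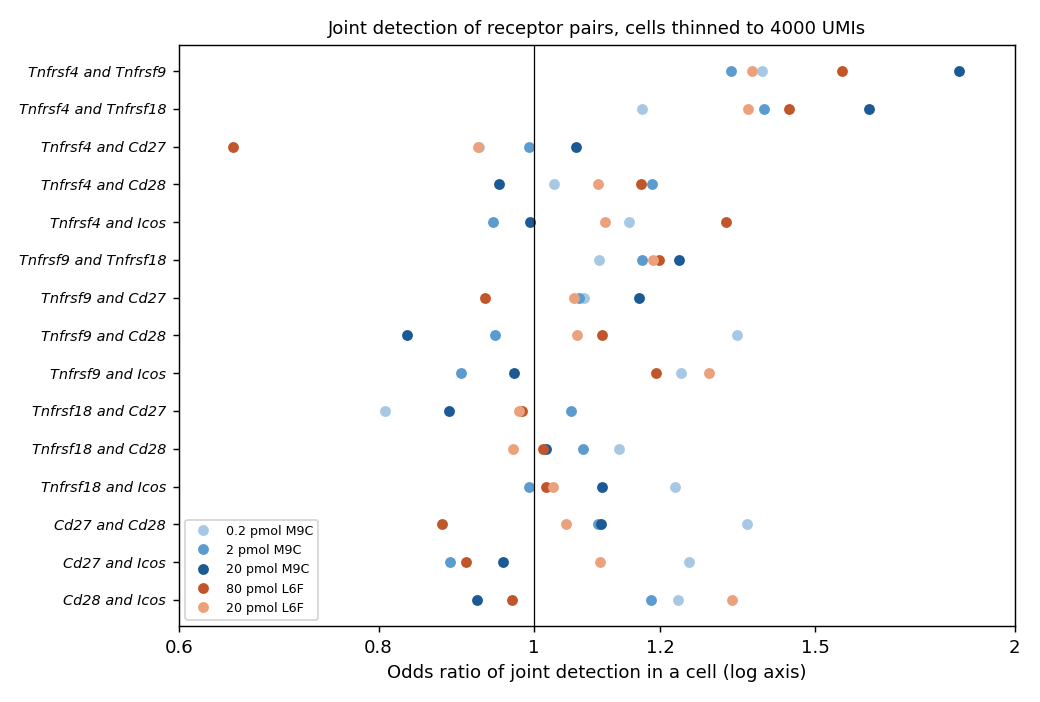
Odds ratio of joint detection in a cell (log axis) for the 15 receptor pairs in the 5 stimulated conditions, cells thinned to 4000 UMIs; each point is 1 condition, and the vertical line marks 1. The pairs among Tnfrsf4, Tnfrsf9 and Tnfrsf18 lie right of the line in all 5 conditions, from 1.10 to 1.85.

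Genes with a pattern like that of a receptor were ranked by the root mean square difference of centred log2(CPM + 1) over the 6 conditions, among 3441 genes at 50 CPM or more in any of them. The closest to Tnfrsf4 were Ccl3 (difference 0.18), Ccl4 (0.27) and Cd200 (0.39), the first 2 being chemokines that activated CD8+ T cells secrete. Ccl3 stood at 225, 321 and 465 CPM at 0.2, 2 and 20 pmol M9C, at 58.0 and 84.8 CPM at 80 and 20 pmol L6F, and at 16.3 CPM at rest. The closest to Tnfrsf9 were Mir155hg, the host gene of a microRNA induced in activated lymphocytes, Hivep3 and Eea1, with differences of 0.15 to 0.18.

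Cd28 was nearest to Ddx39, Tfdp1 and Cenpa (0.03 each), and Icos to Agpat3 (0.07), Phgdh (0.08) and Hmmr (0.09). Over the 5 stimulated conditions alone, where Cd28 hardly varied, its Pearson correlation was 0.03 with Ddx39, 0.64 with Tfdp1 and 0.85 with Cenpa. That of Icos was 0.98 with Agpat3, 0.78 with Phgdh and 0.87 with Hmmr. Cenpa encodes a centromeric histone and Hmmr a protein of the mitotic spindle, and both are genes of dividing cells. Tnfrsf18 was nearest to Serinc1, BC005561 and Ier5 (0.05 to 0.06), and Cd27 to Etnk1, Stk10 and Gsk3b (0.03 to 0.05). All of these patterns rest on 6 cultures.

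The genes around the receptors were counted in 6 lists of 51 genes. At 20 pmol M9C, 32 of the 51 were measured at 10 CPM or more, and 11 passed 2-fold upward and 7 downward against rested cells, that is 34.4% and 21.9% of the measured list genes, beside 16.9% and 16% of all genes. At 20 pmol L6F, 31 were measured and 7 passed upward and 6 downward, that is 22.6% and 19.4%, beside 14.3% and 14%. In both comparisons Bcl2a1b, Birc3, Pdcd1, Ctla4 and Btla were under the 10 CPM minimum at rest and could only be counted upward. Tnfrsf25 and Tnfrsf26 reached it only at rest and could only be counted downward. At 20 pmol M9C, Bcl2a1d likewise could only be counted upward and Tnfrsf13b only downward. The median log2 ratio of the measured list genes was 0.12 at 20 pmol M9C and 0.06 at 20 pmol L6F, against 0.10 and 0.08 over all genes.

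None of the 7 ligands reached 10 CPM in any condition. Tnfsf9, which encodes the ligand of 4-1BB, had 3.43, 3.67 and 4.26 CPM at 0.2, 2 and 20 pmol M9C, 2.25 and 2.44 CPM at 80 and 20 pmol L6F, and 2.18 CPM (2 UMIs) at rest. Tnfsf4, which encodes the ligand of OX40, had at most 0.697 CPM in stimulated cells and no UMI at rest. No UMI of Tnfsf18, the gene of the GITR ligand, was counted in any condition.

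Of the 6 adaptors, 1 (16.7%) passed 2-fold, upward under every stimulus, near the 13.5% to 16.9% of all genes that did. That gene was Siva1, which encodes a partner of the CD27 tail. It had 324, 326 and 327 CPM at 0.2, 2 and 20 pmol M9C, 323 and 322 CPM at 80 and 20 pmol L6F, and 112 CPM at rest. Traf5 was next in size but did not pass, at 10.1 CPM at 20 pmol M9C and 14.1 CPM at rest. Traf1, an adaptor of 4-1BB, separated the peptides, with 74.4, 91.6 and 106 CPM at 0.2, 2 and 20 pmol M9C, 63.8 and 63.7 CPM at 80 and 20 pmol L6F, and 86.0 CPM at rest. Its level with M9C was 1.66-fold (1.53 to 1.80) that with L6F at 20 pmol.

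Of the 10 CD28 and ICOS signalling genes, 4 (40%) passed downward and 1 (10%) upward at 20 pmol M9C, beside 16% and 16.9% of all genes. At 20 pmol L6F, 3 (30%) passed downward and none upward, beside 14% and 14.3% of all genes. The downward calls depended on the processing. Over all 6 lists, 7 genes passed downward at 20 pmol M9C, against 1 with the stricter cell filter, 0 as UMIs per cell, 2 at a minimum of 50 CPM and 4 with HTODemux calls. Grap2, an adaptor of CD28 and T cell receptor signalling, had 40.3 CPM at 20 pmol M9C, 72.1 CPM at 20 pmol L6F and 161 CPM at rest. Pik3r1, the regulatory subunit of phosphoinositide 3-kinase, had 15.9 CPM at 20 pmol M9C, 21.2 CPM at 20 pmol L6F and 49.0 CPM at rest. Both were lowest with M9C. Malt1, a protease on the path to NF-kB, was the gene that passed upward, with 107 CPM at 20 pmol M9C, 80.9 CPM at 20 pmol L6F and 47.9 CPM at rest.

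Of the genes downstream of the TNFR members, 9 were measured at 20 pmol M9C. There, 6 (66.7%) passed 2-fold upward and none downward, beside 16.9% and 16% of all genes. At 20 pmol L6F, 8 were measured, of which 3 (37.5%) passed upward and none downward, beside 14.3% and 14% of all genes. Bcl2a1b, Birc3 and, with M9C, Bcl2a1d were under the 10 CPM minimum at rest and could only be counted upward. The M9C and L6F counts are not read against each other, since Bcl2a1d was measured only through its level with M9C (10.6 CPM at 20 pmol M9C, 4.37 CPM at 20 pmol L6F and no UMI at rest). Bcl2a1b, a survival gene of the Bcl2 family, had 110, 113 and 122 CPM at 0.2, 2 and 20 pmol M9C, 51.9 and 65.2 CPM at 80 and 20 pmol L6F, and 3.26 CPM (3 UMIs) at rest. Bcl2a1b and Bcl2a1d are near-identical copies, so the split of reads between them is uncertain. Relb, a subunit of the alternative NF-kB pathway, had 44.0 CPM at 20 pmol M9C, 30.2 CPM at 20 pmol L6F and 12.0 CPM (11 UMIs) at rest. Rel, another NF-kB subunit, had 62.8, 71.9 and 86.2 CPM at 0.2, 2 and 20 pmol M9C, 41.7 and 43.2 CPM at 80 and 20 pmol L6F, and 43.5 CPM at rest. It did not pass 2-fold over rested cells and was 2.00-fold (1.81 to 2.20) higher with M9C than with L6F at 20 pmol.

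Of 14 other TNFR family receptors, 4 were measured at 20 pmol M9C. Tnfrsf13b, Tnfrsf25 and Tnfrsf26 reached the minimum there only through their rested level and so could only be counted downward. Tnfrsf26 had 1.08 CPM at 20 pmol M9C, 3.31 CPM at 20 pmol L6F and 14.1 CPM (13 UMIs) at rest, and Tnfrsf25 had 1.78, 2.997 and 12.0 CPM (11 UMIs) in those conditions. Tnfrsf13b had 5.88, 10.6 and 26.1 CPM (24 UMIs) in those conditions. The 3 inhibitory receptors of the CD28 family and its relatives (Pdcd1, Ctla4 and Btla) passed upward under each stimulus, where 13.5% to 16.9% of all genes did. They were under the minimum at rest and could only be counted upward. Pdcd1 (PD-1) had 47.1, 62.7 and 69.0 CPM at 0.2, 2 and 20 pmol M9C, 20.2 and 23.8 CPM at 80 and 20 pmol L6F, and 6.53 CPM (6 UMIs) at rest. Ctla4 had 13.0, 17.2 and 22.3 CPM at those M9C doses, 25.6 and 23.4 CPM at those L6F doses, and 1 UMI at rest. Pdcd1 was 2.90-fold (2.57 to 3.28) higher with M9C than with L6F at 20 pmol, and Ctla4 had a log2 ratio of -0.07 (-0.30 to 0.15) there.

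**Figure D5:**
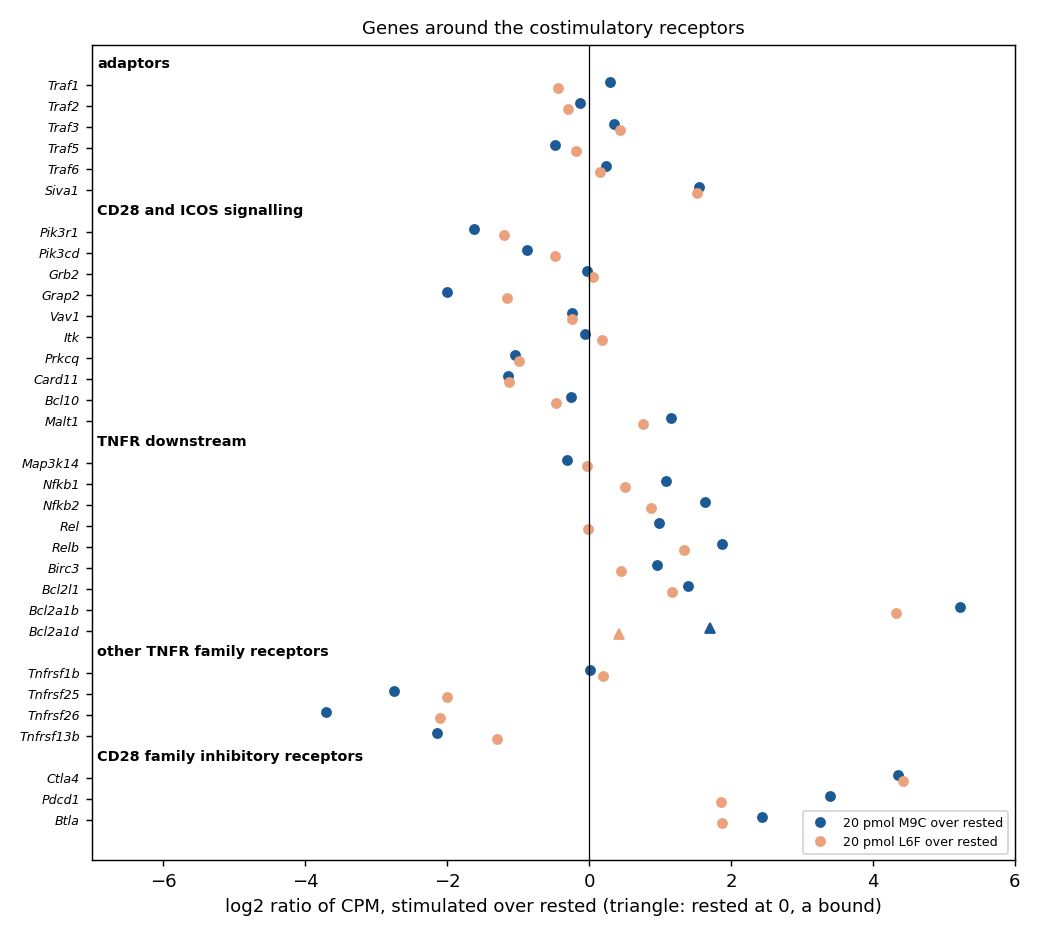
Log2 ratio of CPM over rested cells (horizontal axis) for the measured genes of 5 lists around the receptors, at 20 pmol M9C and 20 pmol L6F, 1 culture each; triangles mark Bcl2a1d, which had no UMI at rest and whose ratio is a lower bound. The genes downstream of the TNFR members lie mostly to the right, with Bcl2a1b furthest at 5.23 for M9C, and Tnfrsf26 lies furthest to the left at -3.71.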

How the data were processed

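The authors deposited 1 matrix of UMI counts per gene and of hashtag counts for 13439 barcodes, for which the submitters' processing notes name bcl2fastq, Cell Ranger 6.0.1 and the build GRCm38 (mm10). The annotation and the cell calling were not given in the sources used here. A deposited text table ties each hashtag to a condition. A cell was given the condition of its top hashtag where that had at least 20 counts and 80% of its hashtag counts; 1768 barcodes (13.2%) had no such hashtag and 11671 did. A minimum of 500 genes and a mitochondrial share of 10% or less left 10600 cells. Multiplets of 1 condition carry a single hashtag: 18.2% of random cell pairs share a condition, so up to 394 may be among the cells, and no other doublet caller was run.

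UMIs were summed per condition as CPM with Python 3.11.15, numpy 2.4.6, scipy 1.17.1 and pandas 2.3.3. R 4.3.3 with Seurat 5.3.0 gave an alternative hashtag call. There were 10 comparisons. Cultures were single, so no test was made; calls need 10 CPM in either condition, 2-fold (1.5-fold between stimuli) and a ratio interval that excludes equality. The scripts were tested on simulated data. All 6 receptors are named, with the 2 genes of each list that had the largest ratio at 20 pmol M9C over rested cells, any others a receptor is described through, and the 3 genes most like each receptor. Rel, Malt1 and the ligands are among those others. The members and lists were chosen with earlier results of these data known. Where a gene overlaps another, whether counting used strand is not stated in the labels.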

Additional observations from a re-analysis of the deposited data

Results flagged for a closer look

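Between the ends of the dose series, Tnfrsf4 and Tnfrsf9 had ratios of opposite sign for the 2 peptides. The Tnfrsf4 log2 ratio was 0.79 for 20 over 0.2 pmol M9C and -0.38 for 80 over 20 pmol L6F. The Tnfrsf9 log2 ratio was 0.14 for 20 over 0.2 pmol M9C and -0.40 for 80 over 20 pmol L6F. Tnfrsf9 did not follow the M9C dose, with -0.17 (-0.31 to -0.03) for 2 over 0.2 pmol, and in UMIs per cell its interval for 20 over 0.2 pmol M9C included equality (0.09, -0.04 to 0.23). With 1 culture per dose the difference between the peptides was not tested, and the dose spans are not matched. Cells at 80 and 20 pmol L6F had medians of 6050 and 6354 UMIs, and whether depth has a part in these ratios was not tested.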

How the results depend on the processing

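The ratios of Tnfrsf4, Tnfrsf9, Cd28 and Icos to rested cells kept their direction under the 7 alternatives tried, as did Tnfrsf4 and Tnfrsf9 between peptides and between the ends of each dose series. Under the alternatives, Tnfrsf4 ranged over log2 ratios of 0.74 to 0.80 for 20 over 0.2 pmol M9C, -0.43 to -0.37 for 80 over 20 pmol L6F, and 2.41 to 2.53 for M9C over L6F at 20 pmol. Sizes to rested cells moved more. With the stricter cell filter (1000 genes or more, mitochondrial share of 5% or less), which left 47 rested cells, the Tnfrsf9 log2 ratio at 0.2, 2 and 20 pmol M9C and at 80 and 20 pmol L6F was 1.85, 1.68, 1.99, 0.73 and 1.14, against 3.51, 3.34, 3.66, 2.39 and 2.79 as reported. As UMIs per cell, the log2 ratios of these 4 receptors to rested cells were 4.01 to 7.70. The ratios of Tnfrsf18 and Cd27 to rested cells reversed under 2 alternatives. As UMIs per cell, the log2 ratios at 0.2, 2 and 20 pmol M9C and at 80 and 20 pmol L6F were 1.94, 1.88, 1.87, 1.47 and 1.63 for Tnfrsf18 and 1.68, 1.67, 1.73, 1.85 and 1.79 for Cd27, an alternative that does not divide by the RNA captured per cell. With the stricter cell filter they were 0.52, 0.49, 0.51, 0.25 and 0.36 for Tnfrsf18 and 0.40, 0.41, 0.51, 0.77 and 0.66 for Cd27; the cause was not tested.

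Counts of receptors past 2-fold over rested cells moved by over 1.5 times in 4 cases. At a minimum of 50 CPM, 2 instead of 4 were higher at 80 pmol L6F, since fewer genes are measured. With no filter on cells, 1 instead of 0 was lower at 0.2 pmol and at 2 pmol M9C, and with a stricter hashtag margin (50 counts and 90%) 1 instead of 0 was lower at 80 pmol L6F. By less than that, 3 instead of 4 were higher when the stricter cell filter was applied at 80 pmol L6F (Tnfrsf9 dropped out) and when the minimum was 50 CPM at 20 pmol L6F, and all 6 were higher under each stimulus as UMIs per cell. Counts of list genes, in the same order of 5 stimuli, were 9, 9, 11, 7 and 7 higher and 7, 7, 7, 6 and 6 lower. As UMIs per cell they were 28, 26, 27, 30 and 29 higher and 0, 1, 0, 0 and 0 lower. The share of all genes higher per cell is not given here, and the median gene was itself past 2-fold. At a minimum of 50 CPM, 5 were higher at 0.2 pmol M9C, 7 at 20 pmol M9C and 2 at either L6F dose, and 2, 2, 2, 2 and 1 were lower. With the stricter cell filter, 5 were higher at 0.2 pmol M9C and 3 at either L6F dose, and 1, 1, 1, 0 and 1 were lower. With HTODemux (quantile 0.99) in place of the hashtag margin, 4 were lower at 0.2 and 20 pmol M9C and 3 at either L6F dose. At 80 pmol L6F, 3 were lower with median-of-ratios size factors and 3 with the stricter hashtag margin. The cause of these moves was not tested, beyond the fewer genes measured at 50 CPM.

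Dropping the deepest cells (over 3 times their condition's median) moved no count or ratio past these limits. Thinning to 500, 2000 or 4000 UMIs shifts every share by construction; 4000 was chosen after seeing the data, and 2000 and 4000 left 49 and 8 rested cells and so no rested share. No paired analysis was possible because each condition was 1 culture. Rested depth limits the folds of Tnfrsf4 (7 rested UMIs) and Tnfrsf9 (6).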

Other observations

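Sdf4 and Park7, the genes just before Tnfrsf4 and Tnfrsf9 by coordinate, were highest at rest in CPM. As for Tnfrsf18 and Cd27, this is an order of shares of the captured RNA and not of UMIs per cell. Sdf4, whose annotated end lies 233 bases before Tnfrsf4, had 181, 184 and 194 CPM at 0.2, 2 and 20 pmol M9C, 165 and 168 CPM at 80 and 20 pmol L6F, and 256 CPM at rest. Park7, 125 bases from Tnfrsf9 on the other strand, had 397, 426 and 437 CPM at 0.2, 2 and 20 pmol M9C, 479.7 and 471 CPM at 80 and 20 pmol L6F, and 639.9 CPM at rest. Over the 5 stimulated conditions Sdf4 had the same order as Tnfrsf4, within a narrower range. Both neighbours of Cd28 were higher in stimulated than in rested cells, as Cd28 was. Raph1 had 17.2, 17.4 and 18.8 CPM at those M9C doses, 12.4 and 13.3 CPM at those L6F doses, and 3.26 CPM (3 UMIs) at rest, and Ctla4, also next to Icos, is described above. Tapbpl, 762 bases from Cd27, had 51.8, 63.8 and 61.9 CPM at those M9C doses, 56.7 and 53.9 CPM at those L6F doses, and 32.6 CPM (30 UMIs) at rest, whereas Cd27 was highest at rest.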
